A study of Homo sapiens with 15 samples.

Results

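The semaphorins, plexins, ephrins and Eph receptors were followed in RNA from MDA-MB-231 cells, an established human triple-negative breast cancer line of mesenchymal character. Genes were taken by symbol, as every row named SEMA or PLXN with a suffix, or EFNA, EFNB, EPHA or EPHB with a number, and 3 antisense genes with such names were left out. This gave 48 of the 18858 genes counted: 19 semaphorins, 9 plexins, 8 ephrins and 12 Eph receptors. The 15 libraries fell into 5 groups of 3. Control cells were not transfected. siControl cells received a control siRNA pool, siYAP cells a pool against YAP1, siTAZ cells a pool against WWTR1, which encodes TAZ, and siYAP+TAZ cells both of the latter pools. All groups came from the one unmodified line, and all cells were plated on gelatin for 5 to 6 h before RNA extraction, after 48 h of knockdown in the transfected groups. Each pool was used at the same concentration, and whether the control pool was matched to the summed amount in siYAP+TAZ cells is not given in the sources used here. Libraries are named here by group and library number, and values are listed in the order 16, 21 and 26 for Control, 17, 22 and 27 for siControl, 18, 23 and 28 for siYAP, 19, 24 and 29 for siTAZ, and 20, 25 and 30 for siYAP+TAZ. The study describes 3 independent sets of experiments, but the labels do not say which libraries form a set.

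Semaphorins are secreted, membrane-spanning or lipid-anchored ligands that were first known for steering axons, and plexins are their main receptors. The intracellular part of a plexin acts on integrin adhesion and the actin cytoskeleton. Class 3 semaphorins are secreted and mostly need a neuropilin as co-receptor, whereas most of the other classes bind plexins directly. Ephrins are cell-surface ligands for the Eph receptors, a large family of receptor tyrosine kinases. A-type ephrins are held by a lipid anchor and B-type ephrins cross the membrane. Eph and ephrin meet where cells touch, signal into both cells, and are known for repulsion, the sorting of cells and the drawing of tissue boundaries. In carcinoma cells both systems are studied for their part in adhesion and invasion.

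Total counts lay between 18696737 and 30107312 per library. YAP1, the target of the siYAP pool, was at 4431, 4333 and 4202 normalized counts in siControl, 1013, 2764 and 761 in siYAP and 2240.2, 2202 and 1796 in siYAP+TAZ. The library siYAP 23 thus kept 64.0% of the siControl mean, and the log2 fold changes were -1.51 (SE 0.37, adjusted p = 0.0992) and -1.06 (SE 0.37, adjusted p = 0.0723). WWTR1 was at 1995, 1850.2 and 1579 in siControl, 828, 254 and 521 in siTAZ and 1133, 1123 and 1284 in siYAP+TAZ, with log2 fold changes of -1.74 (SE 0.31, adjusted p = 0.0187) and -0.62 (SE 0.30, adjusted p = 0.199). All targeted libraries lay below every siControl library, by less in siYAP+TAZ than in most single knockdowns. Markers of the line (VIM, CD44, KRT8, KRT18, AXL, MSN) were between 6184 and 36761 mean normalized counts in siControl. Of the markers listed as low or absent in the line, ESR1 and CDH1 were not among the genes counted. PGR was at 1.26, ERBB3 at 45.5 and EPCAM at 342. Per kilobase of exon EPCAM was higher than 62.8% of the genes with a known length, so it was not low. Of 4 endothelial markers, 2 were measured, and their summed level was 153 to 164 in siControl and 156.0 to 276 in siYAP+TAZ, where PECAM1 rose (log2 fold change 3.03, adjusted p = 9.09e-06) and TIE1 was at a log2 fold change of -0.35. The 2 measured of 4 leukocyte markers summed to 18.2 to 23.1 and 36.7 to 45.2, where CD14 rose and PTPRC was at 1.74. The sums for neuronal (2 of 3 measured) and fibroblast markers (1 of 3) stayed at or below 30.3 and 7.15 in every library. None of the measured markers was at 0 in a whole group, and their part in the values of the guidance genes was not tested.

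The levels of the guidance genes spanned a wide range. Levels are compared between genes as normalized counts per kilobase of annotated exon, averaged over the 3 siControl libraries. EPHA2 (chr1:16124337-16156069, minus strand, GRCh38) stood at 4907, higher than 99.3% of the genes with a known length, and made up 89.4% ± 0.161 (SD, n = 3) of the summed level of the 12 Eph receptors. EPHB4 followed at 327. Among the semaphorins, SEMA7A, a lipid-anchored ligand of plexin-C1 and of integrins, was at 1873 and SEMA6B, a membrane-spanning ligand of A-type plexins, at 832, and the 2 genes together made up 70.4% ± 1.21 (SD, n = 3) of the family. SEMA3C led the class 3 semaphorins at 273, with SEMA3B next at 225.

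PLXNB2 (1190.3 per kilobase) and PLXNA1 (954) together held 76.2% ± 1.61 (SD, n = 3) of the plexin level, whereas PLXNC1, the receptor of SEMA7A, was at 6.84. The ephrins were lower. EFNB2 was at 222 and EFNA5, the leading A-type ephrin, at 84.6. At the other end, EFNA2, EPHA3, EPHA7, SEMA4A and SEMA6D averaged below 10 normalized counts in every group and are not described further one by one. The remaining 43 genes reached that mean in at least 1 group.

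**Figure D1:**
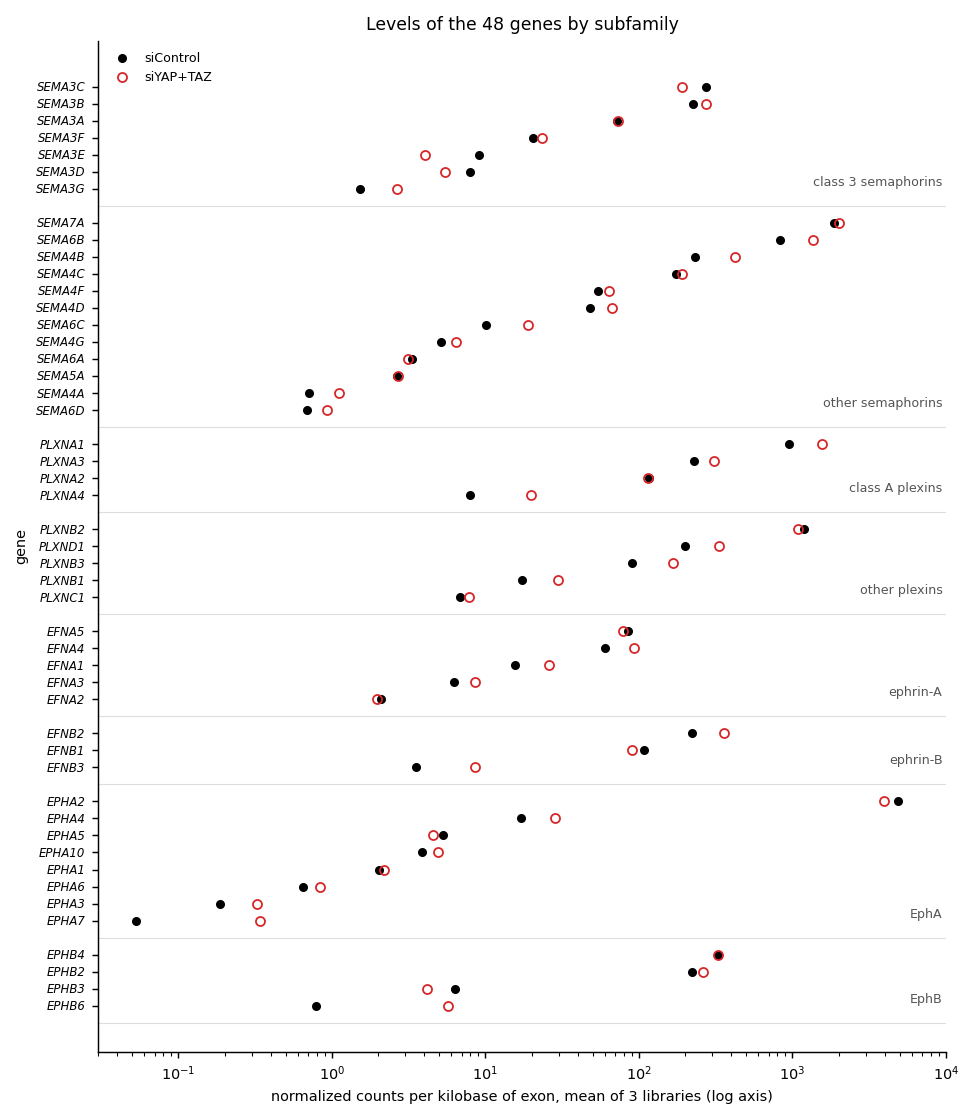
Level of each of the 48 genes in normalized counts per kilobase of exon (log axis, mean of 3 libraries) in siControl (filled black) and siYAP+TAZ (open red), grouped by subfamily. EPHA2 lies highest at 4907 in siControl, EPHA7 lowest, and EPHB6 moves from 0.787 to 5.73.

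The co-knockdown was compared with siControl to find which of these genes respond when both regulators are reduced. Most plexins, several semaphorins of classes 4 and 6, 3 ephrins and 1 Eph receptor were higher in siYAP+TAZ. A gene was taken as changed at an adjusted p of at most 0.05 (over all 18858 genes), and the study's own rule also asked for a log2 fold change of 1 or more in size. EPHB6, PLXNA4 and EFNB3 passed both thresholds, all of them higher, which is 6.25% of the 48 genes against a background of 3.46% of all genes. At the adjusted p alone 14 genes rose and 0 fell, 29.2% of the 48 against 18.4% of all genes, of which 9.97% rose and 8.39% fell. By family, 6 of 9 plexins rose, as did 3 of 8 ephrins, 4 of 19 semaphorins and 1 of 12 Eph receptors, and no class 3 semaphorin (of 7) or EphA receptor (of 8) passed. These calls come from a fit without a block for library numbers. With a block for each run of neighbouring numbers, 18 rose and 5 fell at the adjusted p (background 14.6% and 14% of all genes). Gained were EFNA1, EPHA4, EPHA7 and EPHB2, higher, and EPHA2, EFNB1, SEMA3C, SEMA3D and SEMA3E, lower. The median log2 fold change was 0.34 over the 48 genes and -0.0048 over all genes, and 36 of the 48 were above 0. These are bulk libraries, in which more RNA per cell and more cells with the RNA cannot be told apart.

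The calls did not all rest equally on every library. When each of the 6 libraries was left out in turn, 10 of the 14 genes passed the adjusted p each time. EFNB3 passed only without siControl 27 (adjusted p up to 0.14), PLXNA4 was lost without siControl 17, siControl 22 or siYAP+TAZ 30 (up to 0.163), SEMA6B without the same libraries (up to 0.0764), and EFNA4 without siYAP+TAZ 20 or siControl 27 (up to 0.0621). The count past both thresholds was accordingly 1, EPHB6 alone, without siControl 17 or siControl 22. Libraries of siYAP+TAZ and siControl did not overlap in 25 of the 48 genes, against 36.4% of all genes.

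**Figure D2:**
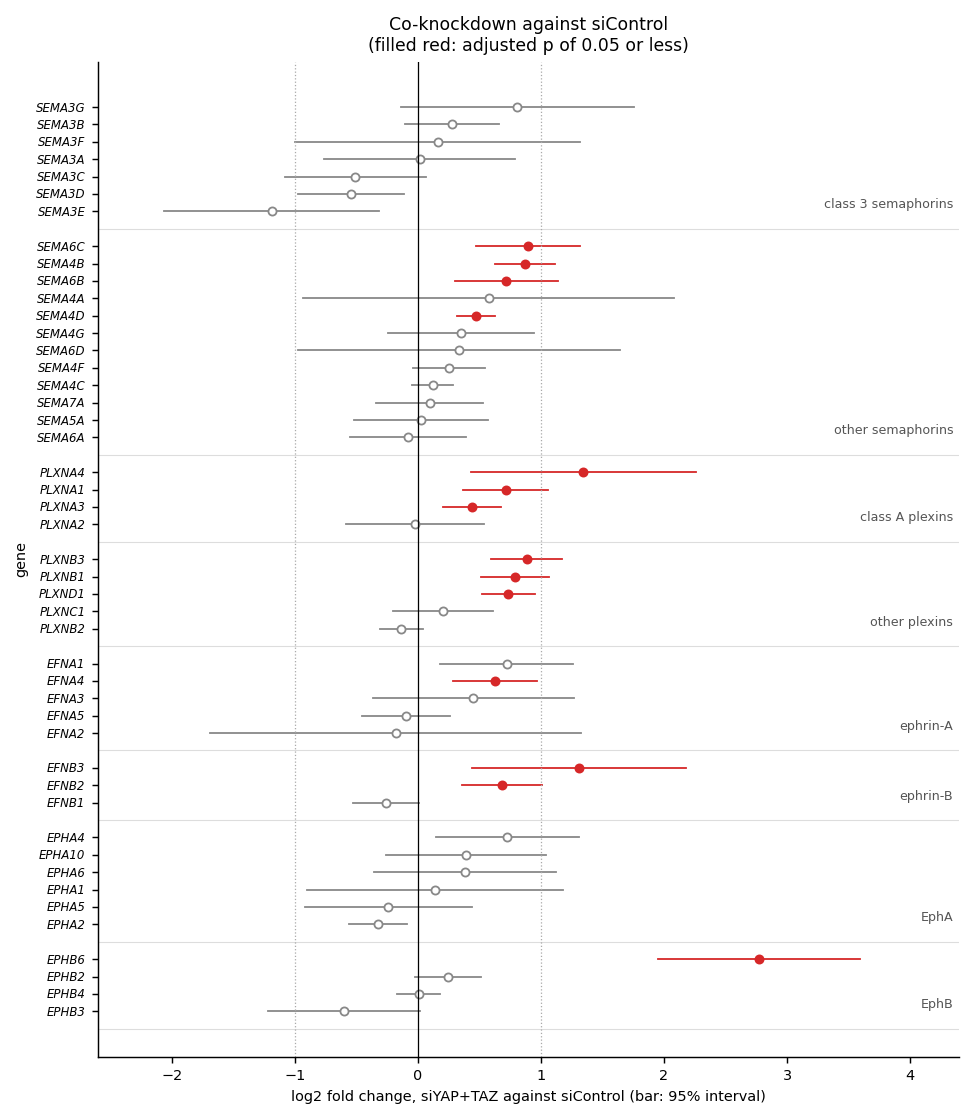
Log2 fold change in siYAP+TAZ against siControl with its 95% interval for each gene, by subfamily (filled red, adjusted p of 0.05 or less; dotted lines, a log2 fold change of 1 in either direction). EPHA3 and EPHA7, with at most 2 counts in any siControl library, are not drawn. EPHB6 at 2.77 lies farthest to the right and SEMA3E at -1.19 farthest to the left, with an interval from -2.06 to -0.31.

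EPHB6 showed the largest rise. This receptor lacks kinase activity. Its normalized counts were 2.997, 3.50 and 2.63 in Control, 7.65, 2.77 and 2.15 in siControl, 4.60, 7.15 and 6.16 in siYAP, 8.61, 5.86 and 7.71 in siTAZ and 36.9, 29.0 and 25.7 in siYAP+TAZ. Every siYAP+TAZ library thus lay above all 12 others. These are few reads, 9, 3 and 2 counts in siControl and 31, 27 and 28 in siYAP+TAZ, and the level per kilobase stayed far below that of EPHA2 or EPHB4. The log2 fold change was 2.77 (95% interval 1.95 to 3.59, adjusted p = 7.93e-05), and 2.49 to 3.55 with 1 library left out.

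No other Eph receptor passed the test in edgeR without the block for library numbers, and DESeq2 also called EPHA4 at the adjusted p alone (adjusted p = 0.0351, background 19.4% of all genes). EPHA2, the main Eph receptor of the line, was at 21646, 20542 and 18773 in siControl and 17117, 17219.6 and 14430.0 in siYAP+TAZ. The siYAP+TAZ libraries were all lower, at a log2 fold change of -0.32 (SE 0.11, adjusted p = 0.0534), which missed the threshold. Its share of the summed Eph receptor level was 86.0% ± 0.217 (SD, n = 3) in siYAP+TAZ. EPHB4, the receptor of ephrin-B2, was at 2216, 2105 and 1993 and 2087, 2291 and 1962, a log2 fold change of 0.0051 with an interval from -0.17 to 0.18. The remaining EphA and EphB receptors that were not low ranged from -0.60 (EPHB3) to 0.73 (EPHA4, adjusted p = 0.0813).

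**Figure D3:**
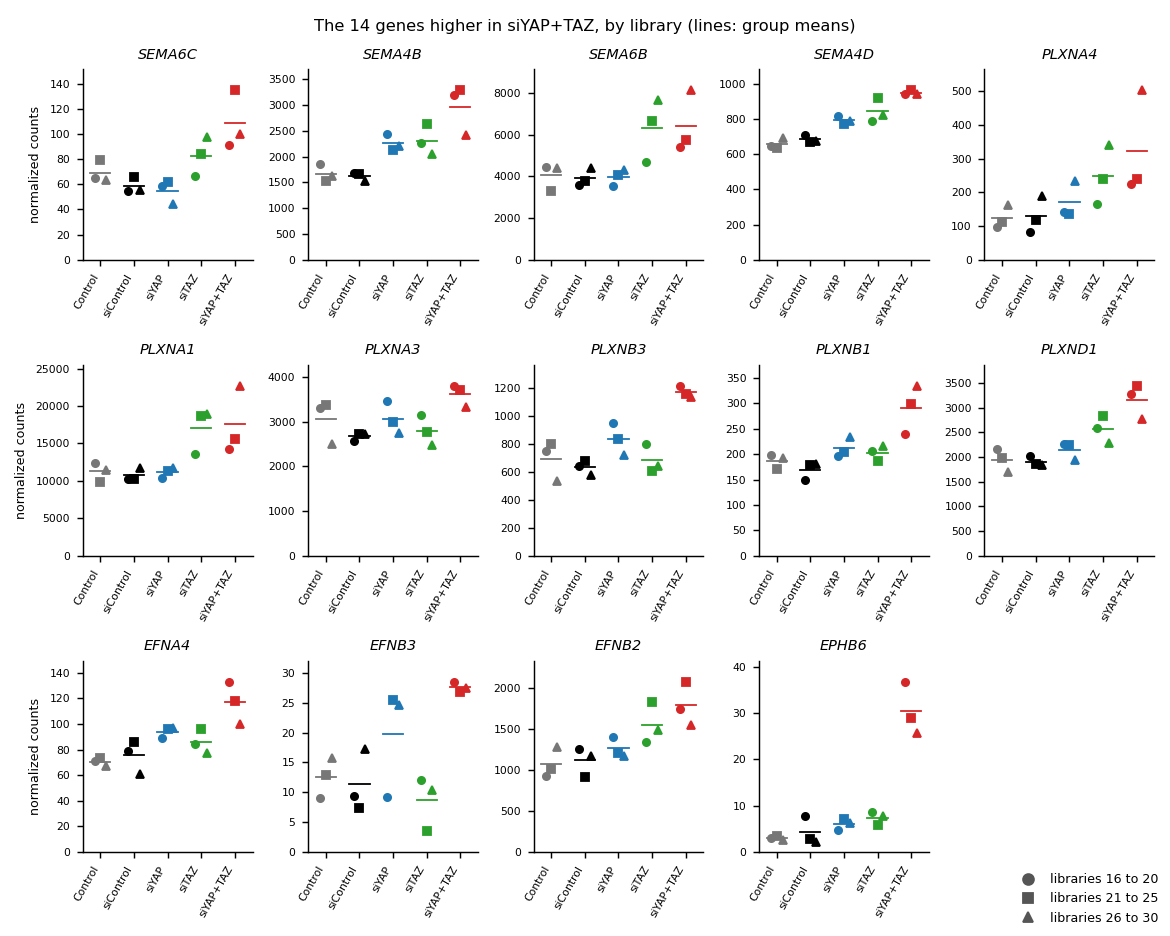
Normalized counts in each of the 15 libraries (axes start at 0; lines are group means; marker shapes show library numbers 16 to 20, 21 to 25 and 26 to 30) for the 14 genes that passed the adjusted p in siYAP+TAZ against siControl. In every panel all 3 siYAP+TAZ libraries lie above all 3 siControl libraries, as for PLXND1 at 2781 to 3447 against 1839 to 2015.

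Plexins were the family with the most calls. PLXNA1, a receptor for class 3 and class 6 semaphorins, was at 10235, 10207 and 11706 normalized counts in siControl and 14319, 15658 and 22714 in siYAP+TAZ (log2 fold change 0.71, SE 0.16, adjusted p = 0.00672). The siYAP+TAZ libraries spread widely but stayed above siControl. PLXNA1 took up 33.9% ± 0.940 (SD, n = 3) of the plexin level in siControl and 42.7% ± 6.87 (SD, n = 3) in siYAP+TAZ, while PLXNB2, at 8239, 8387 and 9338 and 7778, 8074 and 7810.1, had a log2 fold change of -0.13 (adjusted p = 0.313).

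PLXNA4, a receptor for class 3 and class 6 semaphorins, went from 81.7, 117 and 189.9 to 224, 241 and 505. In both groups the library numbered highest (27 and 30) was well above the others, and the log2 fold change of 1.34 had a wide interval (0.43 to 2.26, adjusted p = 0.044). Libraries siYAP+TAZ 30 and siControl 27 were also the highest of their groups for PLXNA1 and SEMA6B. PLXNA3 rose by less, from 2575, 2720.3 and 2724 to 3811, 3722 and 3335 (log2 fold change 0.44, adjusted p = 0.0104), and PLXNA2 gave -0.024 (interval -0.59 to 0.54).

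PLXND1, which binds SEMA3E without a neuropilin, was at 2015, 1850.2 and 1839 in siControl and 3274, 3447 and 2781 in siYAP+TAZ (log2 fold change 0.74, SE 0.10, adjusted p = 7.19e-05). PLXNB1, the receptor of SEMA4D, rose from 149, 178 and 180.2 to 240.2, 299 and 335 (log2 fold change 0.79, SE 0.13, adjusted p = 0.000422). PLXNB3, a receptor of SEMA5A, was at 641, 679 and 579 in siControl and 1219, 1156 and 1136 in siYAP+TAZ (log2 fold change 0.88, SE 0.14, adjusted p = 0.000246). Another annotated gene on the same strand covers 20.4% of its exon bases, so part of its count could have been assigned differently.

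The semaphorins that rose all belonged to classes 4 and 6, which span the membrane. SEMA4B was at 1687, 1659 and 1527 in siControl and 3197, 3298 and 2411 in siYAP+TAZ (log2 fold change 0.87, SE 0.11, adjusted p = 5.14e-05). SEMA4D, the ligand of plexin-B1, rose by less but with little spread, from 712, 670.4 and 674 to 944, 967 and 941 (log2 fold change 0.47, SE 0.075, adjusted p = 0.000246). SEMA6B, the second most abundant semaphorin, was at 3605, 3765 and 4381 in siControl and 5422, 5747 and 8162 in siYAP+TAZ (log2 fold change 0.72, SE 0.19, adjusted p = 0.0212). SEMA6C, at a far lower level, went from 54.4, 65.7 and 55.8 to 91.6, 135 and 100.02 (log2 fold change 0.89, SE 0.20, adjusted p = 0.004). In each of these genes the lowest siYAP+TAZ library was above the highest siControl library. SEMA7A, the most abundant semaphorin, was at 7561, 7291 and 6501 and 7885, 8272 and 6645, overlapping groups with a log2 fold change of 0.094 (interval -0.34 to 0.53).

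No class 3 semaphorin passed the edgeR test against siControl without a block for library numbers, and their values lay on both sides of 0. With the block, SEMA3C, SEMA3D and SEMA3E passed the adjusted p, all lower (background 14% of all genes lower). SEMA3E, the secreted ligand of plexin-D1, was at 90.9, 90.9 and 59.2 in Control, 79.1, 111 and 39.7 in siControl, 91.2, 65.2 and 53.4 in siYAP, 58.6, 48.0 and 25.7 in siTAZ and 41.6, 45.1 and 16.5 in siYAP+TAZ. Within each group the library numbered 26 to 30 was the lowest, and siControl 27 lay below the 2 highest siYAP+TAZ libraries. The log2 fold change was -1.19 (SE 0.41, adjusted p = 0.0572) against siControl, which missed the threshold, and -1.25 (SE 0.41, adjusted p = 0.0458) against Control, which passed both thresholds. DESeq2 with the study's settings called it against siControl (log2 fold change -1.16, adjusted p = 0.0224), and over all alternatives the adjusted p ran from 0.000156 to 0.227.

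SEMA3C, the leading class 3 semaphorin, was at 1737, 1751 and 1506 in siControl and 1268, 1397 and 849.7 in siYAP+TAZ (log2 fold change -0.51, adjusted p = 0.219). The siYAP+TAZ libraries were all lower, without passing the test in the fit without a block. SEMA3C, SEMA3E, SEMA3A and SEMA3D lie in this order on the minus strand of chromosome 7, between positions 80742538 and 85187056 (GRCh38), with CACNA2D1 and PCLO among them. Their log2 fold changes were -0.51, -1.19, 0.013 and -0.55, against 0.055 for CACNA2D1 and 0.59 for PCLO. None of the 6 passed in the fit without a block. SEMA3B, SEMA3F and SEMA3G gave 0.28, 0.16 and 0.81, also without passing.

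**Figure D4:**
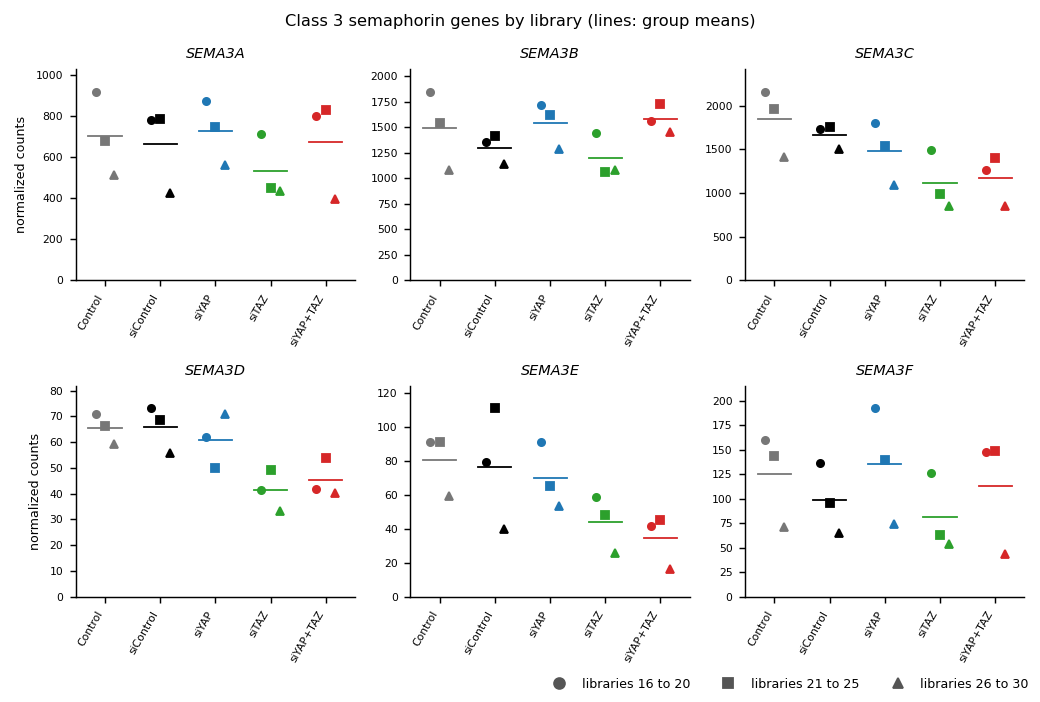
Normalized counts of 6 class 3 semaphorin genes in each of the 15 libraries (axes start at 0; lines are group means; marker shapes show library numbers). For SEMA3A, SEMA3C, SEMA3E and SEMA3F the library numbered 26 to 30 is the lowest in all 5 groups, as for SEMA3E at 16.5 in siYAP+TAZ against 41.6 and 45.1.

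Among the ephrins, EFNB2, the ligand of EPHB4 and the most abundant ephrin, was at 1255, 914 and 1166 in siControl and 1736, 2071 and 1544 in siYAP+TAZ (log2 fold change 0.68, SE 0.15, adjusted p = 0.00583). A gene on the opposite strand covers 36.4% of its exon bases, and since the sources do not state whether counting used the strand, reads of the 2 genes cannot be told apart there. EFNB3 was at 9.36, 7.40 and 17.2 and 28.5, 26.9 and 27.5 (log2 fold change 1.31, interval 0.44 to 2.17, adjusted p = 0.0337), low counts in which the siYAP+TAZ libraries agreed closely and the siControl libraries did not. EFNB1 gave -0.26 (adjusted p = 0.177), which did not pass, so 2 of the 3 B-type ephrins rose.

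EFNA4, EFNA3 and EFNA1 are neighbours on chromosome 1 (GRCh38, positions 155063737 to 155134899, plus strand). EFNA4 rose from 79.1, 86.0 and 61.1 to 133, 118 and 100.02 (log2 fold change 0.62, SE 0.16, adjusted p = 0.0114). EFNA1, the usual partner of EPHA2, was at 39.1, 38.8 and 23.6 and 55.9, 59.1 and 54.1 without overlap, yet at a log2 fold change of 0.72 missed the threshold (adjusted p = 0.0594). EFNA3, with few counts, gave 0.45. Other genes annotated on the same strand cover 15% of the exon bases of EFNA4 and 43.9% of those of EFNA3. EFNA5, the A-type ephrin with the highest level, was at -0.098 (interval -0.46 to 0.26).

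Known ligand and receptor partners were set side by side. SEMA4D and PLXNB1 both rose (0.47 and 0.79), as did SEMA6B and PLXNA4 (0.72 and 1.34). In other pairs 1 partner alone passed. PLXND1 rose while its ligand SEMA3E was at -1.19, PLXNB3 rose with SEMA5A at 0.026, and EFNB2 rose with EPHB4 at 0.0051. Neither partner passed for SEMA7A and PLXNC1, SEMA4C and PLXNB2, or EFNA1 and EPHA2, and in the last pair the ligand lay above 0 (0.72) and the receptor below (-0.32).

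The single knockdowns were compared with siControl to see what either regulator does alone. All comparisons with siControl share its 3 libraries, so their values are given side by side only. With siYAP, 0 of the 48 genes passed under either rule in the edgeR fit without a block (background 0.0955% with both thresholds and 0.933% at the adjusted p alone). At an unadjusted p under 0.05 there were 9 genes (background 11.9%). DESeq2 called SEMA4B alone (background 2.12%) and limma-voom 0 (background 0.88%) at the adjusted p. With siTAZ, 0 genes passed both thresholds (background 0.212%, and 0 by DESeq2 or limma-voom, with 13 at an unadjusted p under 0.05 against 16% of all genes). At the adjusted p alone 4 genes rose (8.33% against a background of 2.03%), namely PLXNA1, PLXND1, SEMA4B and SEMA4D. With a block for each run of neighbouring library numbers, 6 genes passed the adjusted p for siYAP (3 higher, 3 lower, background 6.1%). For siTAZ 12 did (8 higher, 4 lower, background 10.3%). Libraries did not overlap with siControl in 15 genes for siYAP (background 19.5%) and 13 for siTAZ (background 20.9%).

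The siTAZ calls were close to the threshold. PLXNA1 was at 13539, 18718 and 18923 in siTAZ and 10422, 11363 and 11726 in siYAP (log2 fold changes 0.67 and 0.060, adjusted p = 0.0488 and 0.948). All siTAZ libraries lay above siControl, and the siYAP libraries overlapped it. PLXND1 was at 2586, 2835 and 2291 in siTAZ (log2 fold change 0.44, adjusted p = 0.0319) and 2261, 2238 and 1936 in siYAP. SEMA4B was higher than every siControl library in both single knockdowns, at 2255, 2629.8 and 2044 in siTAZ (0.51, adjusted p = 0.0266) and 2439, 2128 and 2207 in siYAP (0.48, adjusted p = 0.0565). SEMA4D was likewise above siControl throughout, at 789.6, 921 and 823 in siTAZ (0.30, adjusted p = 0.0463) and 819.8, 773 and 792 in siYAP (0.21, adjusted p = 0.218). None of the 4 siTAZ calls survived every omission of 1 library: each was lost without siControl 17, siControl 22, siTAZ 24 or siControl 27 (PLXNA1 and SEMA4D also without siTAZ 29), with adjusted p up to 0.263.

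SEMA6B was near siControl in siYAP (3553, 4067 and 4318) and above it in siTAZ (4687, 6684 and 7654), without passing in edgeR (log2 fold change 0.69, adjusted p = 0.0898). SEMA7A had its highest value in library siTAZ 24, at 8912, 16169 and 9129 for the 3 siTAZ libraries, a log2 fold change of 0.68 (adjusted p = 0.11). DESeq2 called both genes at the adjusted p alone (adjusted p = 0.00606 and 0.011), 6 genes in all for siTAZ (background 4.25%). WWTR1 was also lowest in siTAZ 24 among the siTAZ libraries. EPHA2 was lower than siControl in every siYAP library (17198, 17114 and 14300.5, log2 fold change -0.33, adjusted p = 0.207) and overlapped it in siTAZ (21643, 18399 and 18254). EFNB3 had 2 high libraries in siYAP (9.19, 25.4 and 24.6) and was at 12.1, 3.52 and 10.3 in siTAZ.

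**Figure D5:**
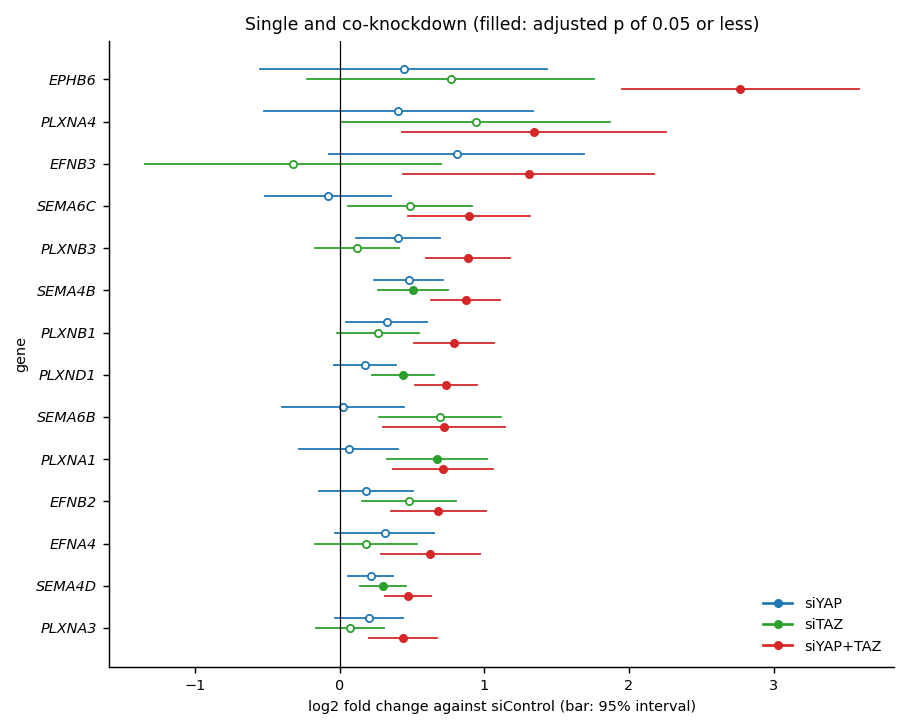
Log2 fold change against siControl with its 95% interval for the 14 genes in siYAP (blue), siTAZ (green) and siYAP+TAZ (red); filled points have an adjusted p of 0.05 or less. For EPHB6 the siYAP+TAZ estimate of 2.77 lies apart from 0.44 in siYAP and 0.77 in siTAZ, whereas for PLXNA1 siTAZ (0.67) and siYAP+TAZ (0.71) lie together.

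The co-knockdown was then compared with each single knockdown directly. Against siYAP, 6 genes were higher at the adjusted p alone (EPHB6, PLXNA1, PLXNB1, PLXNB3, PLXND1 and SEMA6C, with a background of 5.13% of all genes) and EPHB6 passed both thresholds (background 0.742%). Against siTAZ, 4 were higher (EFNB3, EPHB6, PLXNB1 and PLXNB3, background 5.44%), and EPHB6 and EFNB3 passed both (background 0.78%). No gene was lower in either. EPHB6, PLXNB1 and PLXNB3 were therefore higher in the co-knockdown than in both single knockdowns. For PLXNA1 the difference was 0.65 against siYAP (adjusted p = 0.0316) and 0.042 against siTAZ (adjusted p = 0.931, interval -0.30 to 0.39).

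The interaction, which asks whether the co-knockdown differs from the sum of both single effects on the log2 scale, gave 0 of the 48 genes in edgeR (background 0.0106%), with 4 at an unadjusted p under 0.05 (background 5.85%). EPHB6 had the largest estimate of the 14 called genes, 1.56 (interval 0.26 to 2.86, adjusted p = 0.748). The single knockdowns did not differ from each other in any of the 48 genes by edgeR (background 0.642%), with 10 at an unadjusted p under 0.05 (background 13.7%). All 7 class 3 semaphorins had a higher estimate in siYAP than in siTAZ, by 0.37 to 0.71 on the log2 scale, and none passed.

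Control and siControl did not differ in any of the 48 genes by edgeR (background 0%), with 2 at an unadjusted p under 0.05 (background 2.11%). Against Control, siYAP+TAZ had 12 genes higher and 3 lower at the adjusted p alone (background 19.4%), and EPHB6 and PLXNA4 higher and SEMA3E lower past both thresholds (background 3.79%). EFNB3 and PLXNA3 were not among the 12. EPHA2 was -0.44 (adjusted p = 0.00939) and PLXNB2 -0.31 (adjusted p = 0.0128), and for both genes library Control 16 was the highest of all 15. PLXNB2 was the only 1 of the 48 to pass in siYAP against Control (-0.48, adjusted p = 0.00644, background 1.46%), and PLXND1, SEMA4B and SEMA4D rose in siTAZ against Control (background 3.4%).

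Co-receptors and effectors of the pathways were read from lists of known genes. Of 11 plexin co-receptors and further semaphorin receptors measured, 5 rose in siYAP+TAZ against siControl and 0 fell (45.5% called, against 18.4% of all genes, of which 9.97% rose and 8.39% fell; median log2 fold change 0.35). ITGA1, the alpha subunit of a collagen-binding integrin that can bind SEMA7A, was at 310.4, 241 and 202 in siControl and 539.8, 611 and 623 in siYAP+TAZ (log2 fold change 1.23, SE 0.16, adjusted p = 5.05e-05). NRP1, the co-receptor of SEMA3A, rose from 5107, 5218 and 4794 to 8075, 8854 and 7538 (0.69, adjusted p = 2.33e-05), and NRP2 gave 0.35 (interval -0.69 to 1.38). The other 3 that rose were NRCAM, MST1R and L1CAM.

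Of 32 effectors of plexins and semaphorins, 6 rose and 3 fell (28.1% called, against 18.4% of all genes, median 0.044). DPYSL3, a member of the collapsin response mediator proteins that bind tubulin and act downstream of class 3 semaphorins, was at 88.5, 55.5 and 56.9 in siControl and 169, 202 and 152 in siYAP+TAZ (log2 fold change 1.37, SE 0.23, adjusted p = 0.000412). Its relatives DPYSL2 (0.46) and CRMP1 (0.36) rose as well, and the GTPases RND3 (-0.51) and RRAS2 (-0.47) fell while RRAS rose (0.62). Of 27 Eph and ephrin effectors, 6 rose and 0 fell (22.2% called, near the 18.4% of all genes, median 0.1), with NGEF, which binds EphA receptors, at 0.94 and RGS3, which binds B-type ephrins, at 0.79. Of 17 genes of the slit, netrin, repulsive guidance molecule and FLRT systems, 5 rose and 1 fell (35.3% called, against 18.4% of all genes, median 0.34). Those past both thresholds were at the lower end of detection. DRAXIN had 1, 1 and 0 counts in siControl and 7, 4 and 11 in siYAP+TAZ, FLRT3 had 1, 2 and 3 against 6, 8 and 7, and UNC5B had 9, 3 and 2 against 6, 17 and 12.

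Promoter sequence was looked at because 14 genes of these families rose together and YAP and TAZ reach DNA mainly through TEAD factors. RefSeq windows of 250 bases before the start of each gene (GRCh38.p14) were found for 43 of the 48 genes, and SEMA6B and EFNB3 were among those without one. The core letters of the TEAD motif (GGAATG, on either strand) occurred in 3 of the 43 windows (6.98%), those of EPHA2, PLXNB3 and SEMA4A, against 11.9% of all 35116 windows. Among genes that rose in siYAP+TAZ 1 of 12 held it (8.33%) and among the others 2 of 31 (6.45%). The AP-1 motif (TGACTCA or TGAGTCA, on either strand) occurred in 0 of the 43 against 4.2% of all windows. The median G and C content was 68.8% in the windows of genes that rose, 66.4% in all 43 and 58% over all windows, with medians of 23.5, 17 and 11 CG dinucleotides. All windows served for comparison, not only those of the genes counted here. Sequence outside the windows was not searched, and binding of TEAD factors was not tested.

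Windows are shown, 5′ to 3′ on the strand of the gene, for the main Eph receptor and for PLXNB3, which hold the TEAD letters (in capitals), and for EPHB6 and PLXNA4, the genes with the largest fold changes among those that passed, which hold neither motif. They lie at chr1:16156070-16156319 (minus strand, EPHA2), chrX:153763999-153764248 (plus strand, PLXNB3), chr7:142862506-142862755 (plus strand, EPHB6) and chr7:132576471-132576720 (minus strand, PLXNA4).
EPHA2: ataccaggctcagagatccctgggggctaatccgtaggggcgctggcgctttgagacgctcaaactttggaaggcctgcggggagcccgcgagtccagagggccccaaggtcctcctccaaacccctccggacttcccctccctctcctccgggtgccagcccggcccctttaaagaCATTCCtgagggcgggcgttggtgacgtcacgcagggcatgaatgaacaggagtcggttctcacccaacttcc
PLXNB3: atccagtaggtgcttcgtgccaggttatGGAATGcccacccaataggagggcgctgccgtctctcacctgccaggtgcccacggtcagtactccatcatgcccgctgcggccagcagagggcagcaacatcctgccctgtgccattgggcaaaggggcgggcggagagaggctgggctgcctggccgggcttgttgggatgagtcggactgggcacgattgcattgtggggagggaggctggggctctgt
EPHB6: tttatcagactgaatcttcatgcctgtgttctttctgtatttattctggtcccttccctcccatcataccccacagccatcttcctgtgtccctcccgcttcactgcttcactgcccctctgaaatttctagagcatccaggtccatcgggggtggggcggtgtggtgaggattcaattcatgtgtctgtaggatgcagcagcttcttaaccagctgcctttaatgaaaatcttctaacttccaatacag
PLXNA4: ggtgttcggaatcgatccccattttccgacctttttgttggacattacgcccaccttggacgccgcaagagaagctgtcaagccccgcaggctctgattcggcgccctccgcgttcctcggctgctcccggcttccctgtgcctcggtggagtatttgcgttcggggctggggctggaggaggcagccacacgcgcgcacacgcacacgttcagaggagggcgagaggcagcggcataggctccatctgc
The EPHB6 window is the poorest of these in G and C (48%), with 3 CG dinucleotides, and the EPHB6 and PLXNA4 windows lie within the longer gene annotated by GENCODE, so they do not cover its most upstream start. The same holds for other windows in the motif counts, among them those of PLXNA1, SEMA4B and SEMA4D, which rose.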

How the data were processed

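Polyadenylated RNA was sequenced in 15 libraries, 3 for each of 5 groups taken from the sample titles. The authors processed reads with the UTAP pipeline, trimmed them with cutadapt, aligned them to GRCh38 (GENCODE 34) with STAR 2.4.2a and deposited raw counts per gene for genes with at least 5 reads in 1 library. They also deposited a normalized signal from DESeq2 and rlog values on the log2 scale, which were not used here. The log2 fold changes, p-values and adjusted p-values that the authors deposited were left out as well. Whether reads were counted by strand is not given in the sources used here.

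Raw counts were tested with edgeR 4.0.16 in R 4.3.3 (TMM, quasi-likelihood with robust estimation, a coefficient per group over all 15 libraries), and p-values were adjusted by Benjamini-Hochberg over 18858 genes. The study's thresholds are an adjusted p up to 0.05 with a log2 fold change of 1 or more in size. To obtain normalized counts, each count was divided by its library's relative TMM size. Levels per kilobase use merged exons of GENCODE 44, which matched 15574 genes and all 48 members by name, and intervals are at 95%. The code was tested on simulated data. The study describes 3 independent sets of experiments, and the labels do not tie libraries to a set. The p-values measure the spread between libraries. Alternatives were DESeq2 1.42.0 with the study's settings, limma-voom (limma 3.58.1), DESeq2 size factors or library size only, at least 10 reads in 3 libraries, filterByExpr, only the groups compared, no robustness, Control as reference, a block for each run of consecutive library numbers, and each library left out.

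The genes described in full are the siRNA targets, every member at an adjusted p of at most 0.05 in siYAP+TAZ against siControl or past both thresholds in any comparison, the member with the highest level per kilobase in each subfamily, and listed pathway genes past both thresholds. Other members named beside them, such as SEMA3B, SEMA4C, EFNA1, EPHA4 and the neighbours and partners of members, were chosen after their values were seen. The members, gene lists and tests were chosen with earlier results of these data known.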

Additional observations from a re-analysis of the deposited data

Results flagged for a closer look

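PLXNB2 and SEMA4C, a receptor and its ligand, were picked out because every siYAP library lay below the siControl mean and every siTAZ library above it. PLXNB2 was at 7229, 7220.2 and 6594 normalized counts in siYAP and 8859, 9087 and 8738 in siTAZ, a log2 difference of -0.34 (siYAP minus siTAZ, SE 0.084) with an edgeR adjusted p of 0.0694. SEMA4C differed by -0.094 (adjusted p = 0.649). Neither difference passed the test.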

How the results depend on the processing

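For siYAP+TAZ against siControl, 3 of the 48 genes passed both thresholds and 14 the adjusted p alone (background 3.46% and 18.4% of all genes). DESeq2 gave 4 and 16 (background 3.27% and 19.4%) and limma-voom 3 and 14 (background 3.46% and 18.6%). The other scalings gave 3 and 14, the low-count filters 3 and 14 or 15, and the fit of the compared groups alone 2 and 16. The fit without robustness gave 4 and 15, and Control as reference 3 and 15. The share over all genes is not given for these other scalings, filters and fits. Leaving out 1 library gave 1 to 4 and 11 to 14. With a replicate block for each run of neighbouring library numbers, 5 passed both thresholds (SEMA3E and EPHA7 added, background 4.41% of all genes) and 23 the adjusted p (18 higher, 5 lower, all 14 kept, background 14.6% and 14%). Those gained were EFNA1, EPHA4, EPHA7 and EPHB2, higher, and EPHA2, EFNB1, SEMA3C, SEMA3D and SEMA3E, lower. With that block siYAP had 6 genes at the adjusted p (background 6.1%) and siTAZ 12 (background 10.3%), among them SEMA6B higher and SEMA3C, SEMA3D and SEMA3E lower. Of 30 pairs of libraries with neighbouring numbers in different groups, 26 had deviations from their group means correlated above 0.1 (lowest -0.026, median 0.32). Among 60 pairs from different runs of numbers, 15 did (median -0.24). The numbers may therefore mark the sets of experiments without the labels saying so. The counts past both thresholds for siYAP and siTAZ were 0 under every alternative.

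PLXNA4 did not pass when only the compared groups were fitted (adjusted p = 0.124, and up to 0.163 with 1 library left out), nor did EFNB3 against Control (log2 fold change 1.16, adjusted p = 0.062). The sign changed in genes near 0 that never passed: EPHB4 was -0.029 against Control and -0.052 to 0.064 with 1 library left out, SEMA7A was -0.018 against Control, and EFNA5 was -0.20 to 0.047 with 1 library left out. The cause was not tested. With few counts, as in EPHB6 and EFNB3, counting error widens the intervals, and members below 10 normalized counts could show only large changes at this depth.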

Other observations

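EPHA2, SEMA3A, SEMA3C, SEMA3E, SEMA3F, PLXND1, EFNA5, EPHA5 and EPHB2 were lowest in the library numbered 26 to 30 in all 5 groups, which is 9 of the 48 genes against 7.16% of all genes. PLXNA4 and EPHA10 were highest in that library in all 5 groups (2 of 48, against 7.99% of all genes). In the library numbered 16 to 20, EFNA2 was highest in all 5 groups (1 of 48, against 1.7% of all genes) and 0 of 48 were lowest (against 2.38%). In the library numbered 21 to 25, EFNB1 was lowest in all 5 groups (1 of 48, against 0.382% of all genes) and 0 of 48 were highest (against 0.53%). The labels do not say whether neighbouring library numbers mark a shared experiment.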
